A study of Canis lupus familiaris with 17 samples.

Results

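The comparison set older against younger dogs with osteosarcoma (OS), a malignant bone tumor, and asked how far circulating leukocytes differ with age among dogs that share the disease. The rule took only dogs with OS and split them by recorded age. The older group was OS1, OS2, OS4, OS5 and OS10, all aged 9 years or more, with a mean of 10.6 ± 1.23 years (SD, n = 5), and the younger group was OS3, OS6, OS7, OS8 and OS9, all under 8 years, with a mean of 6.88 ± 0.779 years (SD, n = 5). These 10 dogs were part of 17 in the series, and they gave 48478 of the 84345 cell barcodes that passed the quality limits, 26058 from older and 22420 from younger dogs. All 10 dogs carried a tumor and gave 1 blood sample each, and the other 7 dogs were healthy and served only as a range beside the values. The healthy dogs, 4 recorded as female and 3 as male, were 6.9 to 8.8 years old, where the younger dogs with OS were 5.7 to 7.8 years old and every older one was above the healthy range. Leukocytes had been isolated from whole blood on a density gradient and captured with 3′ single-cell RNA sequencing. No dog of 1 breed appeared in both age groups, so breed and age cannot be told apart, and the recorded sexes were 4 male and 1 female in the older group and 2 male and 3 female in the younger.

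In aging mammals the adaptive arm of the immune system is known to shift. The thymus shrinks and releases fewer naive T cells, B cell output from marrow declines, and antigen-experienced cytotoxic T cells accumulate. Innate cells of older individuals are often described as more prone to release inflammatory cytokines such as TNF, IL-1β and IL-6. In the blood of dogs, T cells carry the CD3 complex, of which CD3E encodes a chain, B cells carry MS4A1 (CD20), and monocytes express much lysozyme (LYZ) together with MHC class II genes such as DLA-DRA.

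Each dog's sum of unique molecular identifiers (UMIs) over the barcodes kept ranged from 7337863 in OS3 to 42585315 in OS2, and OS3 had the fewest barcodes kept, 1239. The median barcode held 5607 ± 935 UMIs in older dogs and 5277 ± 516 in younger (exact two-sided permutation test, p = 0.556, n = 5 and 5), and its mitochondrial share was 2.84 ± 0.335% and 2.69 ± 0.591% (exact permutation test, p = 0.611, n = 5 and 5). OS1 kept only 70.7% of its barcodes, against 92.0 to 96.5% in the other older dogs. Any 2 dogs with OS shared between 1 and 22 barcode sequences, at most 0.375% of the smaller library. Before any result it must be said that 4 of the 10 dogs went against their recorded sex. Over 10 genes of the X chromosome that are known in mammals to escape inactivation or to have a Y copy, the summed level was at most 943 CPM (a gene's UMIs scaled to a common library size with TMM factors) in recorded males and at least 1053 CPM in recorded females among the healthy dogs. OS6 (1066 CPM) and OS9 (1128 CPM), recorded as male, lay in the female range, and OS7 (751 CPM) and OS8 (783 CPM), recorded as female, lay in the male range. All 4 belong to the younger group, which by these genes as by the record holds both sexes, and the other 6 dogs lay on the side of their record. Ages rest on reading dog numbers in the study's table as the sample names, which is assumed here. An exchange of records or libraries among these 4 dogs would leave the age groups as they are, and an exchange with other dogs was not tested. Without these 4 dogs OS3 is the only younger dog, and the fold change of 63 of 152 named gene results moved by over 1.5 times. Some of these values stand beside the results below, and those that changed direction stand with the processing alternatives.

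**Figure D1:**
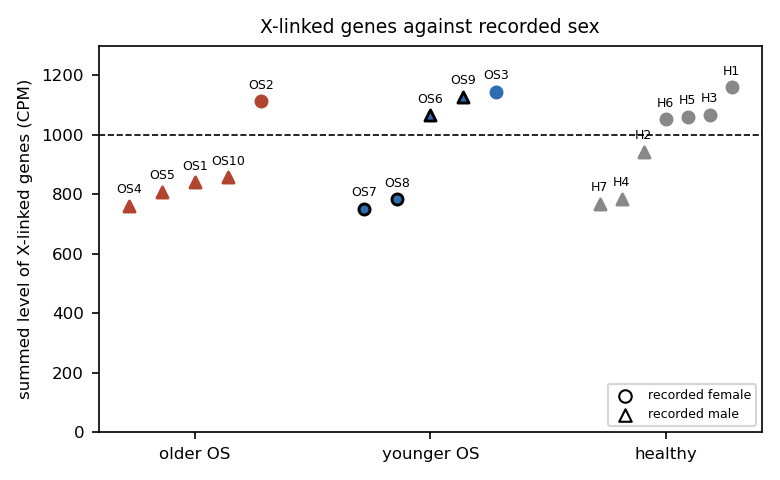
Summed level of 10 X-linked genes (CPM, vertical axis) in each dog by group, with circles for recorded females, triangles for recorded males and black outlines for the 4 dogs on the other side of the dashed line, the midpoint between the healthy sexes at 998 CPM. OS6 and OS9 lie above it and OS7 and OS8 below it, against their recorded sex.

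The first comparison asked whether older dogs carried different proportions of T cells, B cells and monocytes. Barcodes with at least 1 CD3E UMI made up 57.3 ± 13.6% in older and 54.5 ± 6.77% in younger dogs (SD, n = 5 each). OS2 (70.5%) and OS4 (70.8%) were the highest of all 10 dogs and OS5 (38.5%) the lowest, so the older group spanned the younger one, which ran from 48.5 to 64.2%. The groups did not differ beyond this spread (exact Wilcoxon test on ranks, two-sided, p = 0.548, adjusted over 3 gates 0.690, n = 5 and 5).

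MS4A1-positive barcodes, the gate for B cells, made up 2.9% in OS1, 2.27% in OS2, 8.82% in OS4, 1.31% in OS5 and 3.38% in OS10. The younger dogs had 3.47% in OS3, 7.32% in OS6, 5.0% in OS7, 6.36% in OS8 and 5.36% in OS9. Thus 4 older dogs lay below every younger dog, and OS4 lay above all of them. The means were 3.73 ± 2.95% and 5.50 ± 1.45%, and the ranks did not separate the groups (exact Wilcoxon test, p = 0.151, adjusted 0.452, n = 5 and 5). This call rested on OS4: without it the difference of older minus younger was -3.04 percentage points (exact Wilcoxon test, adjusted p = 0.0476, n = 4 and 5). Counting error was small beside the distance of the extremes, with a 95% Clopper-Pearson interval of 1.02 to 1.64% in OS5 and 7.97 to 9.73% in OS4. OS10 (3.38%) and OS3 (3.47%, 43 barcodes) lay too close to be ordered beyond counting error, and the p without OS4 uses that order. Healthy dogs had 5.42 to 10.0%, above each of the same 4 older dogs and also above OS3, OS7 and OS9 of the younger dogs. Without OS6 to OS9 the difference turned to 0.26 percentage points, because the remaining younger dog, OS3, had the lowest share of its group.

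LYZ-high, DLA-DRA-positive barcodes (at least 20 LYZ and 5 DLA-DRA UMIs), the gate for monocytes, made up 39.5% in OS5 and 6.16% in OS4, the extremes of all 10 dogs. The other older dogs had 8.03% (OS2), 14.6% (OS1) and 22.6% (OS10), while the younger dogs lay between 14.6 and 23.4%. The means of 18.2 ± 13.6% and 18.9 ± 3.77% differed by far less than the spread among older dogs (exact Wilcoxon test, p = 0.690, adjusted 0.690, n = 5 and 5). The older dogs thus varied more among themselves than they differed from the younger ones in all 3 gates.

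**Figure D2:**
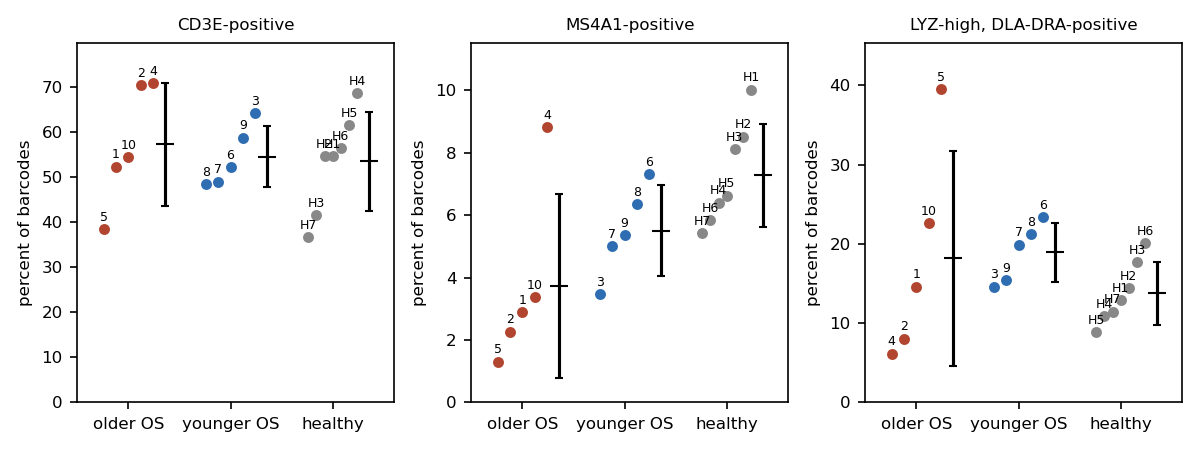
Percent of a dog's barcodes (vertical axes, from 0) in the CD3E-positive, MS4A1-positive and LYZ-high gates, 1 point per dog numbered by dog, with bars for the mean ± SD of 5 older, 5 younger and 7 healthy dogs. OS4 (8.82%) stands apart from the other older dogs in the MS4A1 gate and OS5 (39.5%) is the highest in the LYZ gate.

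Within the gates, the share of barcodes with at least 1 UMI of each of 22 genes chosen for T cell, B cell and myeloid subsets was compared after each barcode was thinned to 1000 UMIs. None of the 22 passed the test after adjustment, but with 5 dogs in each group no share could have passed on its own, even without overlap. The smallest p was that of PAX5, the transcription factor that holds B cell identity, among MS4A1-positive barcodes. PAX5 was seen in 28.8% of these barcodes in OS1, 27.1% in OS2, 31.5% in OS4, 12.9% in OS5 and 29.5% in OS10. In the younger dogs it was seen in 58.1% (OS3), 30.0% (OS6), 36.9% (OS7), 30.8% (OS8) and 34.3% (OS9). The groups overlapped only through OS4, the means were 26.0 ± 7.49% and 38.0 ± 11.6%, and the exact Wilcoxon test gave p = 0.0317 (adjusted over 22 shares 0.553, n = 5 and 5). Without thinning the means were 63.1 ± 14.1% and 73.4 ± 6.23% (exact Wilcoxon test, p = 0.310, adjusted 0.844). Thinned to 2000 UMIs they were 40.9% (range 31.9 to 46.1%) and 56.4% (46.8 to 75.6%), without overlap, and the exact Wilcoxon test gave 0.00794, the smallest p it can give (adjusted 0.175). Without OS6 to OS9 the difference of older minus younger went from -12.1 to -32.2 percentage points. T cell transcripts moved with the age groups in the same gate: CD3E was present in 11.9 to 19.4% of MS4A1-positive barcodes, not thinned, in older and 2.33 to 9.16% in younger dogs, without overlap. The log2 fold change of the PAX5 level in the gate went from -0.42 to -0.01 with at least 2 MS4A1 UMIs required. That stricter gate also left out OS3, which had 19 such barcodes, under the minimum of 25 per dog. The part of T cell transcripts in the PAX5 share was not tested. In CD3E-positive barcodes, which should lack it, PAX5 was seen in at most 0.447% in any dog with OS, and the younger extreme, OS3, rests on 43 MS4A1-positive barcodes.

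Among CD3E-positive barcodes LEF1, a transcription factor of naive T cells, was seen in 34.5 ± 14.9% in older and 50.5 ± 3.74% in younger dogs after thinning (exact Wilcoxon test, p = 0.151, adjusted 0.553, n = 5 and 5). OS4 (20.2%), OS10 (21.6%) and OS1 (32.1%) were low, OS2 (43.3%) was just under the younger range of 44.7 to 54.3%, and OS5 (55.4%) lay above it. The unthinned means were 58.3 ± 19.0% and 73.2 ± 7.31%. For CCR7, the receptor that guides naive and central memory T cells to lymph nodes, the means were 10.7 ± 6.93% and 13.9 ± 2.24%, and for CD4 they were 8.66 ± 2.42% and 10.5 ± 2.48% (exact Wilcoxon test, p = 0.151 for CD4, adjusted 0.553). In MS4A1-positive barcodes LEF1 reached at most 8.57%.

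Cytotoxic genes varied widely within both groups. CCL5, a chemokine of effector T cells, was seen in 28.1% (OS1), 34.7% (OS4) and 20.6% (OS10) of CD3E-positive barcodes, but in 6.73% in OS2 and 3.45% in OS5. The younger dogs OS3, OS6, OS7 and OS8 had 6.03 to 9.28%, and OS9 had 38.4%, the highest of all 10. GZMB (granzyme B) followed the same dogs, with 32.0% in OS1, 26.5% in OS10, 19.1% in OS4 and 34.5% in OS9, and CD8A was likewise highest in OS9 (11.6%). The means of GZMB were 18.1 ± 11.6% and 15.2 ± 11.2% and the exact Wilcoxon test gave p = 1 for GZMB, CCL5 and CD8A. The means were close for CTLA4, an inhibitory receptor (8.06 ± 1.18% and 7.81 ± 1.89%), and for GATA3, a T helper factor (9.36 ± 1.48% and 8.94 ± 2.76%).

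In LYZ-high barcodes IL1B, the gene of the cytokine interleukin 1β, was seen in 64.2% in OS1, 52.7% in OS2, 24.5% in OS4, 5.93% in OS5 and 43.0% in OS10. The younger dogs had 32.0% (OS3), 3.61% (OS6), 17.8% (OS7), 4.54% (OS8) and 21.9% (OS9). OS1, OS2 and OS10 thus exceeded every younger dog and OS5 lay with the lowest of them, and the means of 38.1 ± 23.1% and 16 ± 12% did not pass the test (exact Wilcoxon test, p = 0.0952, adjusted 0.553, n = 5 and 5). The unthinned means were 61.3 ± 31.0% and 32.0 ± 19.5%, and in CD3E-positive barcodes IL1B reached at most 2.29%. CXCL8, the gene of a neutrophil-attracting chemokine, ranged from 18% (OS5) to 96.2% (OS2) in older and from 13.3% (OS8) to 92.3% (OS3) in younger dogs, so nearly the whole scale was covered within each group.

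Of all barcodes, those with JCHAIN, the joining chain of secreted IgM and IgA and a mark of plasma cells, made up 0.679 ± 0.179% in older and 1.25 ± 0.792% in younger dogs (exact Wilcoxon test, p = 0.151, adjusted 0.553, n = 5 and 5). KLRF1, a receptor of natural killer (NK) cells, was seen in 0.0637 ± 0.0548% and 0.186 ± 0.129% (p = 0.0952 by the exact Wilcoxon test, adjusted 0.553). The remaining shares had an exact p of at least 0.310. With 5 dogs in each group the smallest p the Wilcoxon test can give is 0.00794.

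The second comparison asked which genes differ in level between older and younger dogs. UMIs were summed per dog over all barcodes and within each gate and compared by edgeR's quasi-likelihood method with Benjamini-Hochberg adjustment, a gene being called at an adjusted p under 0.01 with a log2 fold change beyond 0.58. No gene was called in any of the 4 populations, so percent called was 0 among 15814 genes over all barcodes, 14909 in CD3E-positive, 11617 in MS4A1-positive and 13788 in LYZ-high barcodes. None passed an adjusted p of 0.05 either. At an unadjusted p under 0.05, there were 668 genes (4.22%) over all barcodes, 747 (5.01%) in CD3E-positive, 659 (5.67%) in MS4A1-positive and 824 (5.98%) in LYZ-high barcodes. DESeq2, the other tool run, called 9, 2, 0 and 2 genes with the same limits (0.0569%, 0.0134%, 0% and 0.0145%), of which 3 (0.019%) were higher and 6 (0.0379%) lower in older dogs over all barcodes. At an unadjusted p under 0.05 DESeq2 gave 4.96%, 5.51%, 4.72% and 6.45% of the genes. By direction, the edgeR share at that level was 2.63% higher and 1.59% lower over all barcodes, 2.68% and 2.33% in CD3E-positive, 3.52% and 2.15% in MS4A1-positive and 2.91% and 3.07% in LYZ-high barcodes. In simulated counts with 3-fold changes put into 200 genes, edgeR with 5 against 5 dogs called 53%, 54%, 49.5% and 57% of the changed genes in the same 4 populations. The genes below are those with the smallest unadjusted p and the leading member of each gene list, given as values, and none of them passed the adjusted test of edgeR.

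**Figure D3:**
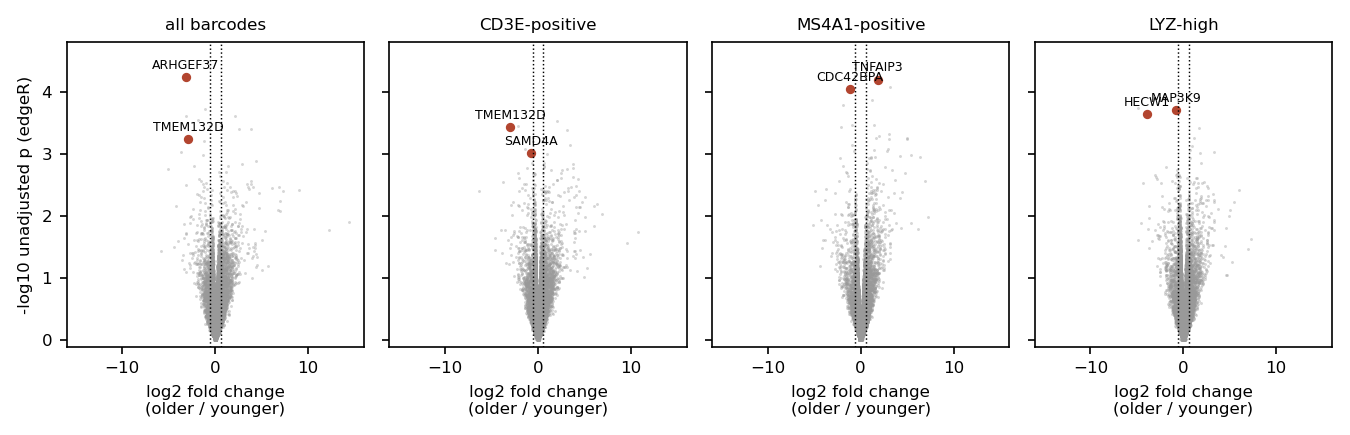
Log2 fold change of older over younger dogs (horizontal axes) against -log10 of the unadjusted edgeR p (vertical axis) for every gene tested in all barcodes, CD3E-positive, MS4A1-positive and LYZ-high barcodes, with dotted lines at a log2 fold change of 0.58 in either direction and examples in red. No point passed the adjusted threshold, and the red genes are among those with the smallest p.

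In sums over all barcodes, fewer cells of a type and less RNA per cell cannot be told apart. Over all barcodes, TMEM132D, a transmembrane protein gene on the list of genes of double-negative (CD4- CD8-) T cells, had the smallest unadjusted p of the genes with a symbol at 10 CPM or more. Its level was 0.997 CPM in OS1, 3.56 in OS2, 3.77 in OS4, 2.69 in OS5 and 4.68 in OS10, against 43.5 in OS3, 15.9 in OS6, 4.20 in OS7, 11.7 in OS8 and 44.2 in OS9. The groups overlapped only because OS10 lay above OS7, and the healthy dogs ran from 4.83 to 43.5 CPM, all above the older dogs and above OS7. The log2 fold change was -2.91 ± 0.62 (SE, n = 5 and 5), adjusted p = 0.934 by edgeR. DESeq2 gave -2.94 and an adjusted p of 0.000461. In CD3E-positive barcodes the same gene gave -2.97 ± 0.61 (adjusted p = 0.874 by edgeR), with 1.21 to 8.09 CPM in older and 7.20 to 74.2 CPM in younger dogs. Adjusting for sex read from the X-linked genes reduced the log2 fold change to -1.99 over all barcodes and -2.23 in CD3E-positive barcodes, and without OS6 to OS9 it was -3.82 and -3.71. Of the 10 genes of the double-negative list 4 had a positive log2 fold change over all barcodes, and the list's median was -0.08, where that of all genes was 0.04. At an unadjusted p under 0.05, 2 of the 10 were lower in older dogs, where 1.59% of all genes were.

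Of the 10 genes with the smallest p here, ARF6, TMC6, NRM and KCNAB1 were higher in every older than in every younger dog, and TBC1D4 and SLAIN1 lower. Over all genes 50 (0.316%) were so ordered upward and 73 (0.462%) downward. ARF6, a small GTPase of membrane traffic, was 206 to 247 CPM in older and 164 to 189 CPM in younger dogs (log2 fold change 0.39 ± 0.10). TMC6, a gene of an ion channel-like protein that also stood among the 10 smallest p in LYZ-high barcodes, was 52.0 to 82.0 CPM and 45.0 to 50.5 CPM (0.50 ± 0.13). TBC1D4, a Rab GTPase-activating protein, was 29.4 to 34.3 CPM in older and 37.9 to 45.0 CPM in younger dogs (-0.35 ± 0.10). These differences were small in fold, with narrow spreads within the groups.

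LDLRAD4 and PELI2, the latter an E3 ubiquitin ligase of Toll-like receptor signaling, had log2 fold changes of -0.51 ± 0.15 and -0.98 ± 0.26. ACOD1, which makes the metabolite itaconate in activated macrophages, was 96.1 CPM in OS1, 77.5 in OS2 and 66.0 in OS10, but 13 in OS4 and 20.2 in OS5, within the younger range of 8.02 to 22.2 CPM. Its log2 fold change was 1.88 ± 0.53 (adjusted p = 0.934 by edgeR), and it rested on the same 3 older dogs in which IL1B was seen most often. KCNAB1, SLAIN1 and NRM had log2 fold changes of 0.78 ± 0.23, -0.44 ± 0.13 and 0.55 ± 0.16.

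**Figure D4:**
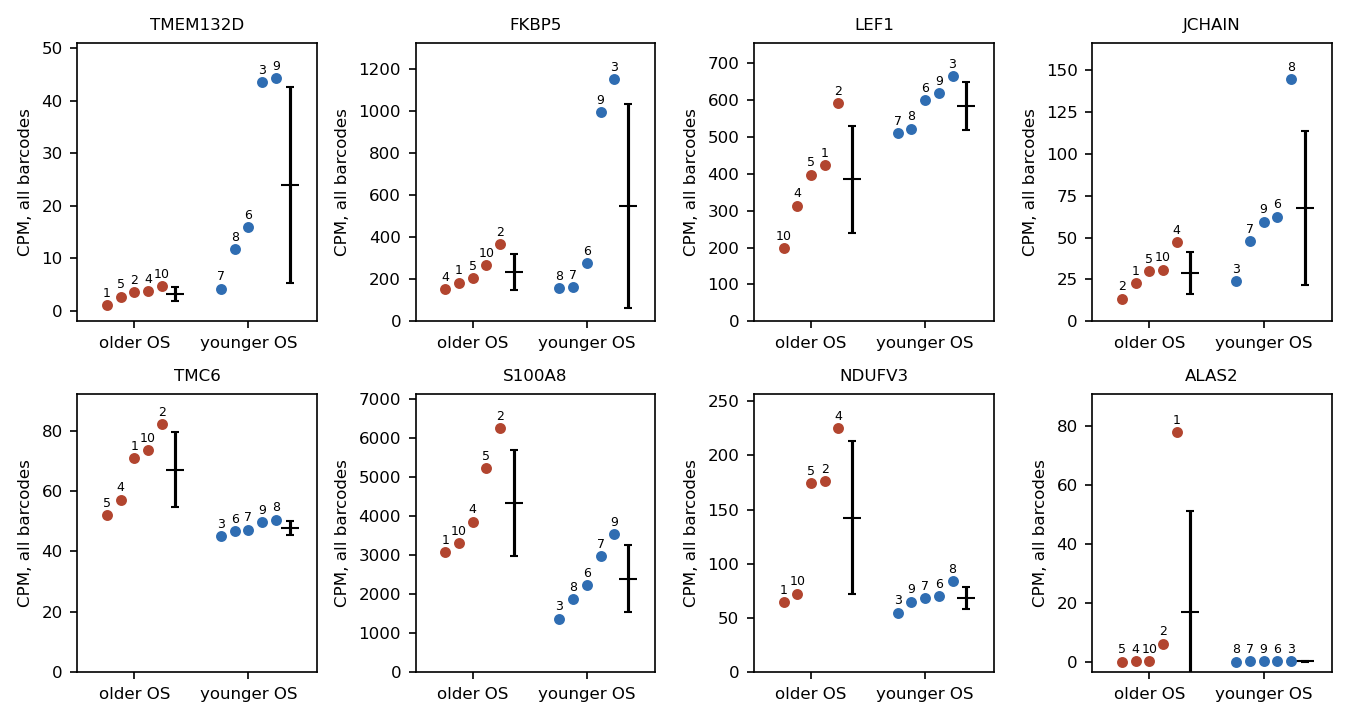
Level over all barcodes (CPM, vertical axes, from 0) of 8 genes in each of 5 older and 5 younger dogs, numbered by dog, with the mean ± SD. TMEM132D and FKBP5 were highest in OS3 and OS9, NDUFV3 in OS2, OS4 and OS5, and ALAS2 in OS1 at 78.1 CPM.

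Plasma cell genes leaned lower in older dogs without a called gene. Of 12 members, 11 had a negative log2 fold change over all barcodes, 2 of them (JCHAIN and IRF4) with an unadjusted p under 0.05, which 1.59% of all genes reached in this direction. The list's median was -0.74 against 0.04 for all genes. JCHAIN was 22.9 CPM in OS1, 13.5 in OS2, 47.3 in OS4, 29.8 in OS5 and 30.9 in OS10, against 23.9 in OS3, 62.4 in OS6, 47.8 in OS7, 144.6 in OS8 and 59.5 in OS9 (log2 fold change -1.21 ± 0.43, adjusted p = 0.934 by edgeR). Among younger dogs, OS3 lay within the older range and the other 4 above it. MZB1, a chaperone of antibody secretion named after its values were seen, was highest in OS8 at 114.4 CPM and lowest in OS2 at 1.56 CPM (log2 fold change -1.60, and -0.84 without OS8). Without OS6 to OS9 the log2 fold change of JCHAIN turned to 0.25 and that of MZB1 to 0.69, while with sex read from the X-linked genes that of MZB1 was -2.59.

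Of 15 B cell identity genes tested, 12 had a negative log2 fold change over all barcodes and none an unadjusted p under 0.05, with a median of -0.25. MS4A1 itself was 36.4 CPM in OS4 and 3.28 to 12.6 CPM in the other older dogs, against 8.84 to 22.7 CPM in younger dogs (log2 fold change -0.29, and -1.12 without OS4). TNFRSF13C, the receptor for the B cell survival factor BAFF, had the smallest p of the list (15.9 to 44.4 against 15.3 to 63.7 CPM, -0.50 ± 0.34). T cell identity genes had a positive log2 fold change in 8 of 10 cases with a median of 0.29 and none at an unadjusted p under 0.05, and CD3E was 315 to 754 CPM in older and 409 to 456 CPM in younger dogs.

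Genes of neutrophil granules and of polymorphonuclear myeloid-derived suppressor cells had a positive log2 fold change in 15 of 17 cases tested over all barcodes. Of these, 3 (S100A8, S100A12 and ELANE) had an unadjusted p under 0.05, where 2.63% of all genes reached it upward, and the median was 1.18. S100A8, a calcium-binding alarmin of neutrophils and monocytes, was 3072 CPM in OS1, 6237 in OS2, 3855 in OS4, 5213 in OS5 and 3297 in OS10. Younger dogs had 1371 CPM (OS3), 2230 (OS6), 2974 (OS7), 1875 (OS8) and 3531 (OS9), so only OS9 reached into the older range (0.87 ± 0.28, adjusted p = 0.934 by edgeR, and 1.63 without OS6 to OS9). Granule genes proper spread far more: CAMP, the cathelicidin gene, was 1363 CPM in OS2 and 1267 in OS5 but 31.5 in OS1, and among younger dogs 771 in OS9 and 0 in OS3. LTF, lactoferrin, was 74.5 to 713 CPM in older and 45.3 to 428 CPM in younger dogs (1.18 ± 0.69). Its log2 fold change was 1.88 without OS9 and 3.02 without OS6 to OS9, and at least 0.81 with any other dog left out. ELANE was 1.33 CPM in OS5 and near 0 elsewhere.

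The red cell genes ALAS2, AHSP and HBM were high in OS1 and, less so, in OS2. All 7 red cell genes tested summed to 671 CPM in OS1 but to 90.4 CPM in OS2, within the 50.4 to 119 CPM of the other dogs with OS. ALAS2, the first enzyme of heme synthesis in erythroid cells, was 78.1 CPM in OS1 and 6.18 CPM in OS2, and at most 0.230 CPM in the other 8 dogs. AHSP, a chaperone of alpha globin, was 74.7 CPM in OS1 and 7.93 CPM in OS2, and HBM, a globin of the alpha cluster, 408 and 19.7 CPM. A pair of Ensembl genes without a symbol followed the same dogs, ENSCAFG00000030286 at 39791 CPM in OS1, 1569 in OS2 and at most 405 elsewhere, and ENSCAFG00000032615 at 44234 CPM in OS1, 1782 in OS2 and at most 196 elsewhere. Of 7 red cell genes tested 5 had an unadjusted p under 0.05, all upward (2.63% of all genes), although OS4, OS5 and OS10 had at most 0.293 CPM of ALAS2, AHSP or HBM, and no fold change is given for genes at or near 0 in the younger dogs. OS1 was also the dog that kept 70.7% of its barcodes, and the part of either in the other was not tested. Platelet genes were positive in 9 of 9 cases (median 0.54) with none at an unadjusted p under 0.05, and TUBB1, the platelet tubulin, was 55.3 to 109 CPM in older and 4.48 to 75.1 CPM in younger dogs, lowest in OS3.

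Genes of naive and central memory T cells gave 3 of 12 with an unadjusted p under 0.05 over all barcodes, all lower in older dogs, where 1.59% of all genes were, and a list median of -0.14. Of the 12 genes, 8 had a negative and 4 a positive log2 fold change. The list summed to 2709 to 5031 CPM in older and 3449 to 3998 CPM in younger dogs, and OS2 was the highest. LEF1 was 422 CPM in OS1, 590 in OS2, 313 in OS4, 397 in OS5 and 199 in OS10, against 510 to 663 CPM in younger dogs (-0.59 ± 0.24). FOXP1, a repressor that keeps T cells quiescent, was 311 to 424 CPM in older and 424 to 554 CPM in younger dogs, without overlap (-0.34 ± 0.13). MAL, the third, was 1.30 to 6.69 CPM in older dogs and 3.70 to 9.56 CPM in 4 younger dogs, with OS9 apart at 28.3 CPM (log2 fold change -1.59, and -0.83 without OS9). Cytotoxic effector genes were positive in 14 of 19 cases with none at an unadjusted p under 0.05 (median 0.29).

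Inflammatory cytokine genes were positive in 14 of 16 cases, 5 higher with an unadjusted p under 0.05, where 2.63% of all genes were, and had a median of 0.73. TNF was 24.3 CPM in OS1, 21.6 in OS2, 12.5 in OS4, 8.02 in OS5 and 25 in OS10, against 3.90, 3.75, 9.32, 8.59 and 13.1 CPM in OS3, OS6, OS7, OS8 and OS9 (1.24 ± 0.39, adjusted p = 0.934 by edgeR). Immediate early genes, the first to respond to stimulation or handling, were positive in 12 of 12 cases (median 0.52, 2 at an unadjusted p under 0.05, a level that 2.63% of all genes reached upward). Their sum was 1241 CPM in OS1, 1422 in OS2 and 1824 in OS10, but 811 in OS4 and 759 in OS5. Younger dogs had 817 to 1116 CPM, so OS4 and OS5 lay below all of them. MHC class II genes had a median of 0.06 and interferon-stimulated genes of 0.26, with 1 gene each at an unadjusted p under 0.05. Monocyte identity (median -0.14), dendritic cell (-0.18), NK cell (-0.13) and cell cycle genes (0.07) had no such gene. Eosinophil and basophil genes (-0.28) had 1 of 10, lower, where 1.59% of all genes were. Gamma-delta T cell genes (0.26) had 2 of 10 and CD34 progenitor genes (0.45) 2 of 9, all higher, where 2.63% of all genes were. The CD34 list was positive in 8 of 9 cases and summed to 15.3 to 36.3 CPM in older and 4.48 to 18.6 CPM in younger dogs. The gamma-delta list summed to 72.9 to 174 CPM and 85.1 to 130 CPM. Genes of cell senescence and longevity gave 2 higher and 1 lower of 16 at an unadjusted p under 0.05, with a median of 0.00.

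FKBP5, a chaperone induced by glucocorticoids, stood out through 2 younger dogs. It was 1149 CPM in OS3 and 994 CPM in OS9, and 157 to 276 CPM in the other younger dogs, where older dogs had 154 to 366 CPM and healthy dogs 119 to 269 CPM. With sex read from the X-linked genes as a covariate its log2 fold change over all barcodes went from -1.22 to -0.14, and without OS6 to OS9 it was -2.32. The same 2 dogs held the highest TMEM132D and, in CD3E-positive barcodes, the highest TOX (754 and 749 CPM, against 305 to 495 CPM in the other dogs with OS), a factor of T cell development and exhaustion. The glucocorticoid list of 10 genes had a median of -0.18 and none at an unadjusted p under 0.05. NDUFV3, a subunit of respiratory complex I, was set apart by other dogs: OS2, OS4 and OS5 had 174 to 225 CPM and the other 7 dogs with OS 55.1 to 83.8 CPM, and healthy dogs 56.6 to 189 CPM. Its log2 fold change was 1.07 ± 0.32, and in CD3E-positive, MS4A1-positive and LYZ-high barcodes the same 3 were highest. Other genes of oxidative phosphorylation coded in the nucleus were positive in most cases (55 of 59 with NDUFV3, median 0.22), as were cytosolic ribosomal protein genes (55 of 56, median 0.28) and the genes of the mitochondrial genome (12 of 12, median 0.23). In these lists 3 of 59, 2 of 56 and 2 of 12 genes were higher at an unadjusted p under 0.05, where 2.63% of all genes were. The sums of all 3 lists overlapped between the groups and were lowest in OS3. Ribosomal sums were 120839 to 216893 CPM in older and 93226 to 175703 CPM in younger dogs. Mitochondrial sums were 27940 to 36936 CPM and 21066.5 to 39389.1 CPM, highest in OS6, and oxidative phosphorylation sums 5778 to 8601 CPM and 4429 to 7241 CPM.

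In CD3E-positive barcodes the 10 genes with the smallest p included, after TMEM132D, SAMD4A, NCALD, QSER1 and RANBP9 with lower and DLGAP2, STX11, SOD2, POC1A and GALK1 with higher mean levels in older dogs. SAMD4A, a translational repressor, was 58 CPM in OS1, 58 in OS2, 37 in OS4, 44.6 in OS5 and 43 in OS10, against 105 in OS3, 67.6 in OS6, 76.0 in OS7, 89.0 in OS8 and 61.1 in OS9. The groups did not overlap, with a log2 fold change of -0.72 ± 0.17 (adjusted p = 0.874 by edgeR). NCALD, a calcium-binding protein gene, was 60.2 to 98.8 CPM against 101 to 153 CPM, and GALK1, galactokinase, 1887 to 2193 CPM against 1032 to 1556 CPM, again without overlap. In this population 58 genes (0.389%) lay entirely above and 87 (0.584%) entirely below.

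STX11, a syntaxin needed for the release of cytotoxic granules, was 34.4 to 63.4 CPM in older and 28.6 to 36.5 CPM in younger dogs (0.62 ± 0.15). SOD2, mitochondrial superoxide dismutase and a target of NF-κB, was 100 to 185 CPM and 86.2 to 112 CPM (0.60 ± 0.15), and 0.42 where barcodes that met 2 gates were left out. Markers of other cells were summed in this gate as well. Neutrophil granule genes summed to 2680 to 3424 CPM in older and 1253 to 2942 CPM in younger dogs (1 of 15 at an unadjusted p under 0.05, none of the list at 0 in all dogs). LTF was seen in 0.400 to 2.65% and 0.127 to 1.16% of CD3E-positive barcodes and CXCL8 in 1.65 to 9.97% and 0.883 to 5.71%, both above the younger median in 5 of 5 older dogs. Red cell genes summed to 39.1 to 139 CPM and 32.6 to 50.8 CPM, with 3 of 6 higher at an unadjusted p under 0.05 and SLC4A1 at 0 in all 10 dogs. At that level 2.68% of all genes in this gate were higher and 2.33% lower in older dogs. The monocyte identity sums were 601 to 3438 CPM and 702 to 2152 CPM, with no gene at an unadjusted p under 0.05. Plasma cell genes summed to 154 to 173 CPM and 148 to 249 CPM, with 2 of 12 lower in older dogs at an unadjusted p under 0.05, and B cell identity genes to 6299 to 10581 CPM and 4467 to 9207 CPM, with 1 of 15 higher. In every dog with OS the B cell sum was higher here than over all barcodes (for OS1, 6299 against 5357 CPM). It therefore cannot be read as a measure of B cells in this gate. No platelet or NK cell gene had an unadjusted p under 0.05 here, with sums of 65.0 to 173 CPM and 10.2 to 186 CPM for platelets and 122 to 497 CPM and 235 to 717 CPM for NK cells. The part of these cells in the differences of CD3E-positive barcodes was not tested. Of the naive and central memory genes 3 of 12 had an unadjusted p under 0.05 and a lower mean in older dogs, where 2.33% of all genes did, and 11 of 12 were negative (median -0.31, all genes 0.03). LEF1 was 719, 793, 454, 1221 and 367 CPM in OS1, OS2, OS4, OS5 and OS10, against 1050 to 1275 CPM in younger dogs (-0.66 ± 0.27), so OS5 lay among the younger dogs and the other 4 below them. FOXO1, which maintains naive T cells and is on the longevity list, was 152 to 168 CPM in older and 177 to 216 CPM in younger dogs, without overlap (-0.30 ± 0.09, adjusted p = 0.874 by edgeR). MAL gave -1.99 ± 0.61 with OS9 at 47.9 CPM and the other dogs at 0.899 to 20.3 CPM, and -1.27 without OS9.

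Lists of effector genes in CD3E-positive barcodes were near balance or varied by dog: cytotoxic effector genes were positive in 14 of 19 cases (median 0.27) and gamma-delta T cell genes in 5 of 10 (0.05), regulatory T cell genes had a median of 0.02 and immune checkpoint genes of 0.11, with at most 1 gene each at an unadjusted p under 0.05. CCL4 was 304 CPM in OS1 and 32.6 CPM in OS5, the extremes of all 10 dogs. Interferon-stimulated genes were positive in 17 of 19 cases (median 0.41, 1 at an unadjusted p under 0.05), led by ISG20 at 92.2 to 203 CPM in older and 49.6 to 146 CPM in younger dogs. The lists of lymphocyte development (-0.49), the double-negative program (-0.17), T cell identity (0.12), platelets (0.23), the cell cycle (0.18), immediate early genes (0.41), glucocorticoid response (-0.07), longevity (0.05), mitochondrial (0.16), ribosomal (0.18) and oxidative phosphorylation genes (0.20) held no called gene. At an unadjusted p under 0.05 the double-negative list had 2 of 10 lower and the longevity list 2 higher and 2 lower of 15. Higher at that level were 1 of 12 immediate early, 1 of 12 mitochondrial, 2 of 56 ribosomal and 2 of 57 oxidative phosphorylation genes. The other lists had none, and of all genes 2.68% were higher and 2.33% lower. ZNF683, a factor of tissue-resident lymphocytes, was highest in OS4 at 34.4 CPM and 4.92 to 17.5 CPM in the other dogs.

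In MS4A1-positive barcodes, of which a dog gave 43 to 382, the smallest adjusted p of all 4 populations was found, 0.347 by edgeR for both TNFAIP3 and CDC42BPA. TNFAIP3 encodes A20, a brake on NF-κB signaling. It was 63.5 CPM in OS1, 60.1 in OS2, 22.6 in OS4, 24.7 in OS5 and 42.6 in OS10, against 12.6 in OS3, 15.1 in OS6, 14.3 in OS7, 6.62 in OS8 and 11.0 in OS9. Every older dog lay above every younger dog, the log2 fold change was 1.84 ± 0.34, and 64 genes (0.551%) of this population were ordered in the same way. DESeq2 gave it an adjusted p of 0.0101, just outside the limit. CDC42BPA, a kinase of the cytoskeleton, was 13.8 to 24.7 CPM in older and 33.1 to 46.4 CPM in younger dogs (-1.14 ± 0.21), and its log2 fold change was -0.53 under the looser cell filter.

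PLPPR1, a phospholipid phosphatase-related gene, was 14.4, 13.5, 7.20, 4.11 and 6.92 CPM in OS1, OS2, OS4, OS5 and OS10 and 15.7 CPM (OS9) to 62.9 CPM (OS3) in younger dogs (-1.92 ± 0.38). VPS45, of endosomal traffic, was 67.9 to 120 CPM and 126.1 to 210 CPM. SYTL3, PLVAP, TGFBR3, PTPN13, CCL3 and CCL4 had higher means in older dogs, with log2 fold changes of 1.18 to 5.02 and adjusted p of 0.373 to 0.476 by edgeR. TGFBR3 rested largely on OS4 (73.1 CPM, other older dogs 6.17 to 16.1, younger 0 to 4.82), with a log2 fold change of 3.04 that was 1.82 without it. CCL3 and CCL4, chemokines that B cells make when activated and that NK and cytotoxic T cells and monocytes also make, were highest in OS2 at 86.0 and 117 CPM and were 0 in OS5. Among younger dogs CCL3 was 2.12 CPM in OS7 and at most 0.471 CPM in the others, so its fold change rests on values near 0. CCL4 was 12.2 CPM in OS9 and 3.01 to 4.20 CPM in the other younger dogs. Without OS2 the log2 fold changes of CCL3 and CCL4 were 3.49 in place of 5.02 and 2.25 in place of 3.04, while that of CCL3 was 6.47 without OS7 and that of CCL4 3.74 without OS9.

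T cell transcripts moved with the age groups inside this gate. Of 10 T cell identity genes 6 had an unadjusted p under 0.05, all higher in older dogs, where 3.52% of all genes in this gate were, none of the 10 genes was at 0 in all dogs, and their summed level was 312 to 674 CPM in older and 92.3 to 424 CPM in younger dogs. CD3E itself was present in 12.3% (OS1), 18.4% (OS2), 11.9% (OS4), 19.4% (OS5) and 13.9% (OS10) of MS4A1-positive barcodes of older dogs, against 2.33% (OS3), 9.16% (OS6), 7.92% (OS7), 3.03% (OS8) and 7.47% (OS9) in younger dogs, without overlap. Where barcodes that met 2 gates were left out, the log2 fold change of SYTL3 turned to -0.09, that of PTPN13 was 0.65 and that of TNFAIP3 1.18, and that of CCL4 rose from 3.04 to 4.44. With at least 2 MS4A1 UMIs required, which also left out OS3, the log2 fold change of PLVAP was 0.21 in place of 1.39. Platelet genes also leaned upward here (3 of 9 higher at an unadjusted p under 0.05, against the same 3.52%, summed level 158 to 533 CPM and 4.20 to 243 CPM). GP1BB turned from 1.35 to -1.57 under the stricter gate, again without OS3. NK cell genes summed to 47.3 to 58.8 CPM in older and 8.39 to 48.2 CPM in younger dogs, where only OS9 reached above the lowest older dog, OS5 (1 of 7 at an unadjusted p under 0.05, PAX4 at 0 in all 10 dogs). Neutrophil granule genes summed to 481 to 3909 CPM and 8.39 to 1561 CPM (2 of 15 at an unadjusted p under 0.05, ELANE at 0 in all 10 dogs). Monocyte identity genes summed to 1013 to 3226 CPM and 596 to 2608 CPM, 1 of 12 with an unadjusted p under 0.05. Red cell genes summed to 39.4 to 143 CPM and 33.6 to 66.4 CPM, with 2 of 4 tested at an unadjusted p under 0.05 and SLC4A1 and CA1 at 0 in all 10 dogs. All genes of these lists with an unadjusted p under 0.05 were higher in older dogs. Their part in these differences was not tested.

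B cell identity genes themselves were balanced in MS4A1-positive barcodes, with 7 of 15 positive and a median of -0.02 (all genes 0.01), PAX5 being 195 to 394 CPM in older and 310 to 671 CPM in younger dogs (-0.42 ± 0.23). The log2 fold change of PAX5 was -0.01 under the stricter gate, which left out OS3, and -1.04 without OS6 to OS9. All 12 plasma cell genes were negative with a median of -0.60 and none at an unadjusted p under 0.05, and IRF4 was 48.7 to 141 CPM and 71.3 to 211 CPM. Interferon-stimulated genes were positive in 17 of 18 cases, 7 of them with an unadjusted p under 0.05, where 3.52% of all genes had it in this direction, and the median was 0.76. DDX58, the RNA sensor RIG-I, was 29.8 CPM in OS1, 36.3 in OS2, 25.2 in OS4, 14.4 in OS5 and 32.3 in OS10, against 4.20 in OS3, 15.5 in OS6, 11.1 in OS7, 15.7 in OS8 and 19.8 in OS9 (0.94 ± 0.29, adjusted p = 0.748 by edgeR). Only OS5 lay within the younger range, while MX2 was 71.0 to 88.4 CPM against 42.0 to 73.1 CPM, with OS5 the highest and only OS4 within the younger range. The lowest younger values came from OS3, whose 43 barcodes gave 196844 UMIs in all.

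Immediate early genes were positive in 11 of 11 cases in this gate (4 at an unadjusted p under 0.05, against 3.52% of all genes upward, median 0.72), with FOSL2 at 9.26 to 28 CPM in older and 6.02 to 10.1 CPM in younger dogs and JUNB at 25 CPM in OS1, 24.9 in OS2 and 3.46 to 10.3 in the other older dogs. The list summed to 528 to 925 CPM in older and 357 to 609 CPM in younger dogs. Where barcodes that met 2 gates were left out, the log2 fold change of FOSL2 went from 1.16 to 0.098. LMNB1, which encodes lamin B1 and is known to be lost in senescent cells, was 57.6 to 114 CPM in older and 31.3 to 60.9 CPM in younger dogs (0.90 ± 0.22) but turned to a log2 fold change of -0.083 under the looser cell filter, and the 15 longevity genes together had a median of -0.05. SGK1, a kinase induced by glucocorticoids, was 95.3 CPM in OS1 and 64.5 CPM in OS10 and at most 21.6 CPM elsewhere (log2 fold change 1.68, and 0.60 without barcodes that met 2 gates), and its list was positive in 8 of 10 cases (median 0.51). CCR6, a chemokine receptor of memory B cells, was 66.4 CPM in OS4 and 4.65 to 22.6 CPM in the other dogs (log2 fold change 1.32, and 0.42 without OS4). The lists of germinal centre and memory B cells (0.35), MHC class II (0.19), lymphocyte development (-0.35), mitochondrial (0.17), ribosomal (0.22) and oxidative phosphorylation genes (0.03) held no called gene. At an unadjusted p under 0.05 the germinal centre and memory list had 1 higher and 1 lower of 11. Higher were 2 of 12 mitochondrial, 1 of 55 ribosomal and 1 of 56 oxidative phosphorylation genes. Of all genes in this gate 3.52% were higher and 2.15% lower.

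**Figure D5:**
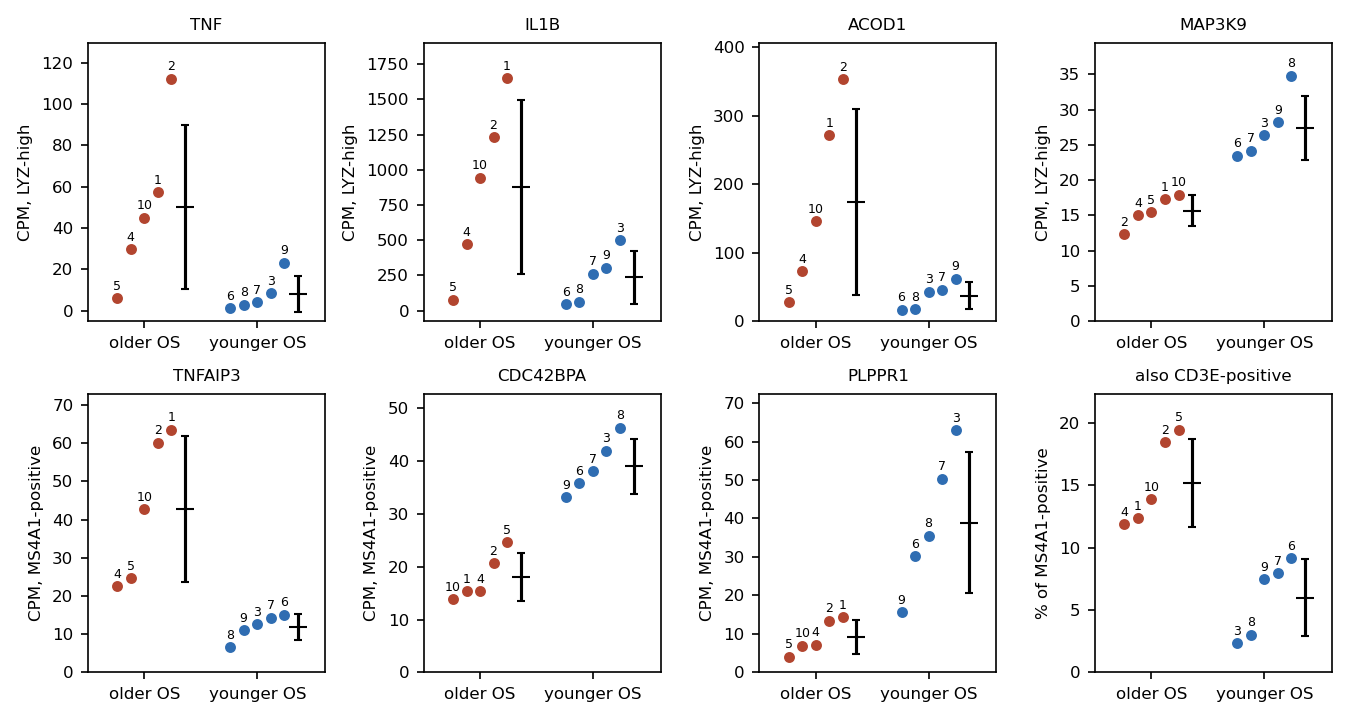
Level (CPM, from 0) of 4 genes in LYZ-high and 3 genes in MS4A1-positive barcodes, and percent of MS4A1-positive barcodes that also held a CD3E UMI, in each of 5 older and 5 younger dogs, numbered by dog, with the mean ± SD. OS1, OS2 and OS10 are the highest older dogs for TNF, IL1B and ACOD1 and OS5 is the lowest, while MAP3K9, TNFAIP3, CDC42BPA, PLPPR1 and the CD3E share do not overlap between the groups.

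In LYZ-high barcodes inflammatory cytokine genes were positive in 15 of 16 cases, 8 of them with an unadjusted p under 0.05 where 2.91% of all genes had it upward, and the list median was 1.16 against 0.03 for all genes. TNF was 57.2 CPM in OS1, 112 in OS2, 29.9 in OS4, 5.92 in OS5 and 45.0 in OS10, against 8.39 in OS3, 1.36 in OS6, 4.20 in OS7, 2.95 in OS8 and 23.3 in OS9. OS1, OS2, OS4 and OS10 lay above every younger dog and OS5 below 2 of them, with a log2 fold change of 2.66 ± 0.79 (adjusted p = 0.804 by edgeR) that was 3.77 without OS9. IL1B was 1651, 1233, 473, 79.4 and 944 CPM in OS1, OS2, OS4, OS5 and OS10 and 502, 47.7, 262, 62.9 and 305 CPM in OS3, OS6, OS7, OS8 and OS9 (1.90 ± 0.74, and 0.83 without OS6 to OS9).

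Other genes were named after their values were seen: NFKBIA, CCL3, SOD2, CXCL8 and IL6 of the list, and ACOD1, which is not on it. OS1 and OS2 were the highest older dogs for all of these, and OS5 was the lowest for all but IL6, which was 0 CPM in OS4. NFKBIA, the inhibitor of NF-κB that NF-κB itself induces, was 1473 CPM in OS1, 2032 in OS2 and 847 in OS10, 737 in OS4 and 296 in OS5, and 228 to 819 CPM in younger dogs. CCL3 was 590 and 901 CPM in OS1 and OS2 and 11.7 CPM in OS5, and SOD2 was 525 to 1775 CPM against 411 to 750 CPM (0.98 ± 0.30). CXCL8, at 10296 CPM in OS2 and 4293 CPM in OS3, had a log2 fold change of 1.36 ± 0.97 that was 0.29 without OS2, 2.61 without OS3 and -0.36 without OS6 to OS9. IL6 was at most 3.38 CPM in any dog with OS and 3.53 CPM in healthy dogs. ACOD1 was 272, 353, 73.1, 27.9 and 146 CPM in OS1, OS2, OS4, OS5 and OS10, against 17.2 to 62.5 CPM in younger dogs (2.22 ± 0.60). The log2 fold change of CCL3 was 2.04 without OS2 and 3.82 without OS3. Without OS6 to OS9 the log2 fold change of CCL3 went from 2.80 to 1.13 and that of NFKBIA from 1.17 to 0.42. With sex read from the X-linked genes as a covariate it was 3.29 for TNF, 2.36 for CXCL8 and 3.69 for CCL3. Healthy dogs ran from 0.334 to 96.4 CPM for TNF, 7.56 to 945 CPM for IL1B and 14.7 to 7331 CPM for CXCL8, so OS2 lay above them for all 3 genes and OS1 for IL1B.

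Immediate early genes leaned the same way (11 of 12 positive, median 0.80, where that of all genes was 0.03). Of these, 2 were higher at an unadjusted p under 0.05, which 2.91% of all genes reached upward. The immediate early list summed to 833 to 3257 CPM in older and 1103 to 2204 CPM in younger dogs, and OS5 was the lowest. NR4A1, an orphan nuclear receptor of that class, was among the 10 smallest p. It was 276 CPM in OS1, 225 in OS2, 196 in OS4, 141 in OS5 and 234 in OS10, against 107 to 153 CPM in younger dogs, so only OS5 lay within the younger range (0.74 ± 0.18, adjusted p = 0.804 by edgeR). OS5 also gave the most LYZ-high barcodes, 2175, where the other dogs gave 181 to 1219. GADD45B, a stress-response gene, was 150, 209, 69.9, 35.2 and 114 CPM in the older dogs in the same order and 13 to 74 CPM in younger dogs.

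Among the other genes with the smallest p in LYZ-high barcodes, MAP3K9, a kinase upstream of JNK, was 17.3 CPM in OS1, 12.4 in OS2, 15.1 in OS4, 15.5 in OS5 and 18 in OS10, against 26.4 in OS3, 23.5 in OS6, 24.2 in OS7, 34.8 in OS8 and 28.2 in OS9. The groups did not overlap, with a log2 fold change of -0.81 ± 0.15 (adjusted p = 0.804 by edgeR) that stayed between -0.92 and -0.70 under the alternatives run. In this population 0.914% of genes lay entirely below and 0.464% entirely above. PRKD3, RPRD2, PLCXD2 and SLAIN1 were lower in every older dog as well, with log2 fold changes of -0.43, -0.43, -0.63 and -0.71, and TPM1, a tropomyosin, was lower with overlap (-0.68). PMS2, a mismatch repair gene, was 14.4 to 20.2 CPM in older and 7.92 to 12.6 CPM in younger dogs (0.72 ± 0.17), and SLC2A6, a sugar transporter gene that inflammatory stimuli induce, 23 to 34.6 CPM and 14.0 to 20.6 CPM (0.63 ± 0.16). TMC6 was 41.0 to 82.3 CPM and 25.5 to 40.4 CPM (0.94 ± 0.21).

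Of 12 monocyte identity genes, a class that the gate itself selects through LYZ and DLA-DRA, 6 were positive and 6 negative (median -0.03, 1 at an unadjusted p under 0.05). CD74, the MHC class II invariant chain, was 1942 CPM in OS5 and 4459 to 6860 CPM in the other older dogs, against 1274 to 3288 CPM in younger dogs (0.81 ± 0.33), while the class II list as a whole had a median of 0.00. Neutrophil genes were positive in 14 of 15 cases (median 0.72), LTF being 112 to 403 CPM and 108 to 214 CPM. Interferon-stimulated genes (0.32), dendritic cell genes (-0.21), platelet genes (0.22), longevity genes (-0.08), glucocorticoid-responsive genes (-0.10) and the mitochondrial (0.26), ribosomal (0.20) and oxidative phosphorylation genes (0.20) had between 0 and 2 genes at an unadjusted p under 0.05 in either direction. The 2 were of 14 longevity genes, both higher, where 2.91% of all genes were higher. FKBP5 again stood apart in OS3 and OS9, at 1427 and 1599 CPM, against 85.9 to 262 CPM in all other dogs with OS. Of T cell identity genes in this gate, whose sums were 46.8 to 113 CPM and 44 to 101 CPM, none had an unadjusted p under 0.05. CD3E was present in 15% of the LYZ-high barcodes of OS2, 5.66 to 7.51% of those of the other older dogs and 3.63 to 8.8% of those of younger dogs, and where barcodes that met 2 gates were left out the fold change of no gene named in this gate moved by over 1.5 times. Plasma cell genes, summing to 321 to 383 CPM and 210 to 341 CPM, had 3 lower and 1 higher of 12 at an unadjusted p under 0.05, where 3.07% of all genes were lower and 2.91% higher. Neutrophil granule genes summed to 5010 to 7231 CPM and 3511 to 5693 CPM (2 of 15 higher). In OS1, OS3, OS6, OS7, OS8 and OS10 that sum was above the one over all barcodes (for OS3, 3511 against 2204 CPM). The list also holds genes of monocytes such as S100A8, so its sum cannot be read as a measure of neutrophils in this gate. Red cell genes summed to 104 to 169 CPM and 75.9 to 130 CPM (1 of 4 tested higher, SLC4A1 at 0 in all 10 dogs). In every dog with OS but OS1 the red cell sum was above that over all barcodes (for OS10, 169 against 119 CPM). It therefore cannot be read as a measure of red cells in this gate. The sums of B cell identity genes were 2683 to 5288 CPM and 2423 to 4406 CPM and those of NK cell genes 4.86 to 18.8 CPM and 1.20 to 29.3 CPM, with none at an unadjusted p under 0.05. The part of the other cells in the differences of LYZ-high barcodes was not tested.

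DESeq2 called 9 genes over all barcodes, 8 of them at 12.7 CPM or less in every dog with OS. NSG1 (1.99 to 11.6 CPM in older and 0.344 to 1.86 in younger dogs), PDGFD (2.93 to 10.7 and 0.768 to 2.66) and SLPI (0.423 to 11.8 and 0.0921 to 0.459) were higher, and ARHGEF37, ENSCAFG00000041353, RASGRP3, HECW1, CECR2 and TMEM132D lower. RASGRP3, which activates Ras in B cells, was 2.88 to 6.64 CPM in older and 8.23 to 12.7 CPM in younger dogs. Healthy dogs had 8.67 to 23.3 CPM, above every older dog and above OS7 at 8.23 CPM. CECR2, a chromatin remodeling gene, was 3.57 to 6.92 CPM against 8.61 to 12.0 CPM, and healthy dogs had 9.29 to 15.1 CPM. ARHGEF37 was 0.0814 to 0.296 CPM and 0.410 to 2.64 CPM and HECW1 0.244 to 0.456 CPM and 0.689 to 9.32 CPM, and both were also called by DESeq2 in LYZ-high barcodes. Without OS6 to OS9 the log2 fold change of HECW1 by edgeR went from -3.16 to -0.84 over all barcodes and from -3.87 to -1.20 in LYZ-high barcodes. Without OS7 alone, its highest dog, it was -2.41 and -3.12. In CD3E-positive barcodes NSG1 was called as well (1.07 to 15 and 0.205 to 0.944 CPM). With edgeR the unadjusted p of these genes lay between 5.77e-05 and 0.000711, and none passed after adjustment.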

How the data were processed

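UMI counts per gene and barcode were used as deposited by the authors, 1 matrix per dog, not normalized. Per the labels and methods, Cell Ranger 7.0.0 made them on CanFam3.1, with and without intronic reads, and which set was deposited is not given in the sources used here. Ages and sex came from the study's table, whose dog numbers were assumed to be those of the sample names. Barcodes with 200 to 4500 genes, 500 to 20000 UMIs and under 10% mitochondrial UMIs were kept. No doublet caller was run, and barcodes meeting 2 gates were left out as an alternative. Counts were summed per dog, for genes with at least 10 counts over the 10 dogs. In the fits a dog needed at least 25 barcodes, which left OS3 (19 barcodes) out of the stricter MS4A1 gate. Tests used edgeR 4.0.16 (TMM, quasi-likelihood) with DESeq2 1.42.0 as the alternative, in R 4.3.3. Printed CPM share 1 TMM scaling over all 17 dogs, and fold changes come from the 10 dogs with OS. Shares were compared by an exact Wilcoxon test on ranks (two-sided), adjusted by Benjamini-Hochberg over 3 gates and over 22 shares, and medians by exact permutation tests. Where nothing else is said, p-values measure the spread between dogs. Clopper-Pearson intervals (95%) cover counting error only. In simulations edgeR called 2 to 4 unchanged genes per population. Of simulated shares differing by 2 SD, 64.3% gave an unadjusted p below 0.05 by the exact Wilcoxon test, and the adjusted test was not simulated.

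The members and gene lists were chosen with earlier results of these data known. Named were lineage genes, per population the 10 genes with a symbol, at least 10 CPM and the smallest p, and each list's member with the smallest p at 10 CPM or more. Over all barcodes S100A12, CAMP, LTF, ELANE, LEF1, MAL, MZB1, IRF4, ALAS2, AHSP and the genes without a symbol, in CD3E-positive barcodes LEF1, in MS4A1-positive barcodes JUNB and MX2, in LYZ-high barcodes IL1B, CXCL8, CCL3, IL6, SOD2, NFKBIA and ACOD1, and the named genes called by DESeq2 were added after their values were seen. Some genes that these rules name are not reported here. Python 3.11.15 did the rest.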

Additional observations from a re-analysis of the deposited data

Results flagged for a closer look

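In each group of 5 dogs, the highest or lowest dog was marked where its gap to the next dog, divided by the whole range, passed Dixon's 95% critical value. Of 366 groups looked at, 37 (10.1%) were marked. Chance marks about 5% of groups, a share that does not compare with this one, since some of the genes were chosen after their values were seen and the populations overlap. By dog these were 9 in OS3, 7 in OS9, 6 in OS4, 4 each in OS1 and OS6, 2 each in OS2, OS5 and OS7, 1 in OS10 and 0 in OS8.

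OS1 stood above the other older dogs in red cell genes over all barcodes, with 408 CPM of HBM (others at most 19.7), 78.1 CPM of ALAS2 (at most 6.18) and 74.7 CPM of AHSP (at most 7.93). It also kept 70.7% of its barcodes, below the 92.0 to 96.5% of the other older dogs.

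OS4 stood above the other older dogs in B cells and in genes of MS4A1-positive barcodes. Its MS4A1-positive share was 8.82% (others 1.31 to 3.38%), its MS4A1 level over all barcodes 36.4 CPM (3.28 to 12.6), and within the gate it had 73.1 CPM of TGFBR3 (6.17 to 16.1) and 66.4 CPM of CCR6 (6.74 to 22.6). CD27 was seen in 0.276% of its barcodes there (0 in the others), a share near 0 in a gate of 362 barcodes. In LYZ-high barcodes it was lowest in SLAIN1 at 8.41 CPM. OS5 had PAX5 in 12.9% of MS4A1-positive barcodes (others 27.1 to 31.5%) and 26.7 CPM of PTPN13 there. OS2 had 86.0 CPM of CCL3 in that gate (at most 15) and 336 CPM of MT-ND5 over all barcodes (238 to 264). OS10 had 129 CPM of NR4A1 in CD3E-positive barcodes (80.2 to 86.4).

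Among younger dogs OS9 stood out in cytotoxic T cell genes. CD8A was 60.5 CPM over all barcodes (others 16.4 to 23.5) and 105 CPM in CD3E-positive barcodes (34.1 to 49.7), where 11.6% of barcodes held CD8A (3.05 to 4.86%) and 38.4% held CCL5 (6.03 to 9.28%). It also had 28.3 CPM of MAL (3.70 to 9.56) and 771 CPM of CAMP (at most 208) over all barcodes, and 12.2 CPM of CCL4 in MS4A1-positive barcodes (3.01 to 4.20).

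OS3, the library with the fewest barcodes, was lowest in NRM (15 CPM) and highest in CD6 (44.1 CPM) over all barcodes, and lowest in GALK1 (1032 CPM) and NR4A1 (49.0 CPM) in CD3E-positive barcodes. In LYZ-high barcodes it was highest in CD4 (88.3 CPM), CXCL8 (4293 CPM) and IL6 (0.799 CPM, from 2 UMIs) and lowest in NDUFV3 (45.2 CPM), and 58.1% of its MS4A1-positive barcodes held PAX5 (30.0 to 36.9%). OS6 was lowest in CD74 in LYZ-high barcodes (1274 CPM, others 2789 to 3288), and highest in CCR7 among CD3E-positive barcodes (17.8%, others 11.9 to 13.5%), in CD27 among MS4A1-positive barcodes (0.263% in a gate of 382 barcodes, others 0) and in the median mitochondrial share (3.71%, others 2.30 to 2.70%). OS7 was highest in CCL3 (2.12 CPM) and IL1B (11.1 CPM) of MS4A1-positive barcodes. The part of depth or of other cells in these values was not tested.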

How the results depend on the processing

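edgeR called no gene in any population under any alternative run. DESeq2 called 9 genes over all barcodes, 2 in CD3E-positive, 0 in MS4A1-positive and 2 in LYZ-high barcodes. Of 152 named gene results 130 kept their direction under every alternative, and the 3183 values held 55 reversals. With 1 dog left out, 25 moved in fold by over 1.5 times. The cause of the reversals below was not tested. No paired analysis was possible because older and younger dogs were different animals, and the replicate numbers only name the dogs.

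The alternatives with sex read from X-linked genes, and without OS6 to OS9, were chosen after seeing the data. Without those 4 dogs, with 1 younger dog left, log2 fold changes turned over all barcodes to -0.12 (CD4), 0.57 (MS4A1), 0.93 (LYZ), 0.91 (TNFRSF13C), 0.25 (JCHAIN), 0.69 (MZB1) and 0.046 (IRF4), to 0.59 for CD8A in CD3E-positive barcodes, 0.39 for IRF4 in MS4A1-positive barcodes, and in LYZ-high barcodes to -0.74 (CD4), -0.52 (THBS1), 0.12 (TCF4) and -0.36 (CXCL8). Differences in shares, in percentage points, turned to -6.83 (CD3E gate), 0.263 (MS4A1 gate), 3.58 (LYZ gate), 2.09 (CD8A), 5.68 (JCHAIN in the MS4A1 gate), -2.82 (CD4 in the LYZ gate), -4.92 (S100A12), -28.8 (CXCL8), 0.350 (JCHAIN, all), 3.01 (PPBP) and 0.389 (IL5RA).

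CD4 over all barcodes, near 0 in either direction, was -0.014 with DESeq2 and with its size factors, -0.0062 with filterByExpr, -0.0064 with healthy dogs in the fit, -0.00040 without a filter, -0.0021 without barcodes in 2 gates and -0.20 with sex by X-linked genes. That covariate gave 0.11 for CD8A in CD3E-positive and -0.063 for LYZ in LYZ-high barcodes, and recorded sex gave -0.016 for CD8A over all barcodes and -0.17 for LYZ in LYZ-high barcodes. The looser cell filter gave 0.091 (LYZ) and -0.13 (TYMS) over all barcodes, 0.14 (MS4A1) and -0.083 (LMNB1) in MS4A1-positive and -0.024 (CD4) in LYZ-high barcodes. In MS4A1-positive barcodes, leaving out those in 2 gates gave 0.10 (MS4A1) and -0.093 (SYTL3), and the stricter gate, without OS3, 0.094 (MS4A1) and -1.57 (GP1BB). Thinning to 1000 UMIs gave 0.107 for the LYZ gate and to 2000 gave -0.770 (GATA3) and 1.41 (JCHAIN, MS4A1 gate), and no thinning gave 1.16 (CD8A) and 3.34 (JCHAIN, MS4A1 gate).

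With 1 dog left out, gate differences ran from -0.571 to 7.50 (CD3E), -3.04 to -1.16 (MS4A1) and -6.05 to 2.29 (LYZ). Subset differences ran from -0.0526 to 0.0552 (CD27), -0.236 to 1.09 (CD4, LYZ gate), -0.883 to 1.49 (CD8A), -0.241 to 0.890 (CTLA4), -0.380 to 1.13 (GATA3), -0.627 to 7.67 (GZMB), -0.477 to 4.49 (IGHM), -1.96 to 1.45 (JCHAIN, MS4A1 gate) and -1.03 to 0.853 (PPBP). Log2 fold changes ran from -0.0056 to 0.19 (CD3E) and -0.13 to 0.41 (CD8A) and -0.012 to 0.23 (TYMS) in CD3E-positive, -0.023 to 0.46 (CD4) and -0.089 to 0.17 (LYZ) in LYZ-high, -0.18 to 0.041 (MS4A1) in MS4A1-positive, and -0.11 to 0.19 (CD4) and -0.48 to 0.19 (LYZ) over all barcodes. Depth limits the MS4A1 gate most, with 43 barcodes in OS3 and 72 in OS5.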
